A study of Arabidopsis thaliana with 4 samples.

Results

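AT3G13310, AT4G36040 and AT2G17880 are 3 Arabidopsis genes for small proteins with a DnaJ domain, which the RefSeq gene table also names DJC66, J11 (DJC23) and DJC24. They were taken by locus, and 1 of the 3 was matched to a probe set that the tables used here name for 1 gene, out of 22746 probe sets tested. That gene is AT3G13310, named by Supplementary Data 1, the study's list of genes that differed on KUA1 induction. AT3G13310 was thus selected on its signals on these same arrays, and its difference between the treatments is given below as a description without a test. AT4G36040 and AT2G17880 were not matched to a probe set, and both are not analysed here. Probe sets that the platform table lists for more than 1 gene were not used in this matching.
RNA came from whole seedlings of KUA1-IOX, a transgenic line in Col-0 in which the MYB-like transcription factor gene KUA1 is overexpressed on addition of estradiol. T3 seedlings, 14 days old and moved to liquid MS medium, received 15 µM estradiol in ethanol or the ethanol alone (mock), and were collected 4 h later. There were 2 biological replicates of each treatment, each on its own Affymetrix ATH1 array. Mock seedlings are a control in the genotype label but KUA1-IOX in the title and in the methods, so both groups are taken to carry the construct. No line lacking it was given estradiol, and the effects of estradiol and of KUA1 cannot be told apart.

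J proteins are the co-chaperones of Hsp70. Their J domain, which carries a histidine-proline-aspartate motif, stimulates ATP hydrolysis by Hsp70 and so lets it grip an unfolded client, while the rest of the protein picks the client or the place. The smallest plant members are little more than a J domain, and some, such as J8, J11 and J20, work in the chloroplast, where J20 brings inactive deoxyxylulose phosphate synthase to Hsp70 and where loss of J8, J11 or J20 lowers photosynthetic performance. The arrays measured RNA, so they carry no value for where the AT3G13310 protein lies.

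The signal of AT3G13310 was 873 and 1355 on the estradiol arrays, against 97.0 and 149 on the mock arrays. Both estradiol signals lay far above both mock signals, and neither group was dim. Dim means here that the mean log2 signal of a group falls below the 40th percentile of that group's probe sets. The mean signal was 1114 ± 341 (SD, n = 2) in estradiol-treated seedlings and 123 ± 37.0 (SD, n = 2) in mock-treated seedlings, which is a log2 difference of 3.18, or 9.04-fold between geometric means.
Comparing single arrays, the log2 difference ran from 2.55 for estradiol replicate 1 over mock replicate 2 to 3.80 for estradiol replicate 2 over mock replicate 1. Replicate 2 was higher than replicate 1 in both groups, by 0.63 on the log2 scale in estradiol-treated and by 0.62 in mock-treated seedlings. Gaps between replicates at least as wide as these were found in 81 of 1129 probe sets with a mean estradiol signal within 1 log2 unit of this one, and in 534 of 6134 with a like mock signal.

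**Figure D1:**
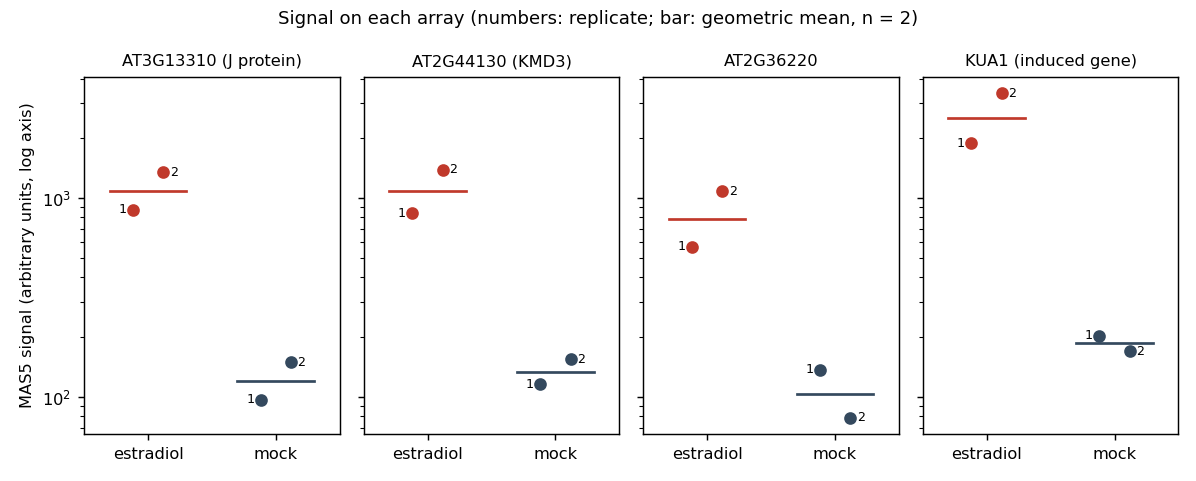
MAS5 signal on a log axis for AT3G13310, AT2G44130 (KMD3), AT2G36220 and KUA1 on the 2 estradiol and the 2 mock arrays, with the replicate number beside each point and a bar at the geometric mean (n = 2). In each gene both estradiol arrays lie above both mock arrays, and for AT3G13310 they lie at 873 and 1355 against 97.0 and 149.

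Among all probe sets, 17 had a log2 difference at least as high as that of AT3G13310, itself included, and 13 of these were dim in both groups. Of the 13236 probe sets that were dim in neither group, KUA1 was the only other one. KUA1, the gene that estradiol induces in this line, had signals of 1887 and 3373 on the estradiol arrays and of 203 and 170 on the mock arrays, a log2 difference of 3.76. The remaining pair, dim in mock-treated seedlings only, were ICL, or isocitrate lyase, a glyoxylate cycle enzyme, at 3.89, and GSTU3, a glutathione S-transferase, at 3.60.
In whole seedlings a higher signal per cell and more cells that express the gene cannot be told apart. Of the root markers 3 of 4 were measured, which means here matched to a probe set that the platform table gives to 1 gene. Their summed signal was 1902 and 1943 on the estradiol arrays and 2057 and 2548 on the mock arrays. All 3 had both estradiol arrays below both mock arrays, as did 18.0% of all probe sets. The log2 difference was -0.23 for PYK10, a root glucosidase, and -0.80 and -1.44 for the root hair expansins EXPA7 and EXPA18. EXPA18 was dim in estradiol-treated seedlings, with signals of 12.8 and 13.8. PYK10 made up most of the summed signal, at 1861 and 1906 on the estradiol arrays and 1994 and 2446 on the mock arrays. The measured leaf marker, 1 of 5, was RCA, Rubisco activase, with signals of 2298 and 2624 in estradiol-treated and of 2622 and 2693 in mock-treated seedlings. No marker of flowers (0 of 4) or seeds (0 of 3) was matched to a probe set. The part of these shifts in the AT3G13310 signal was not tested.

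**Figure D2:**
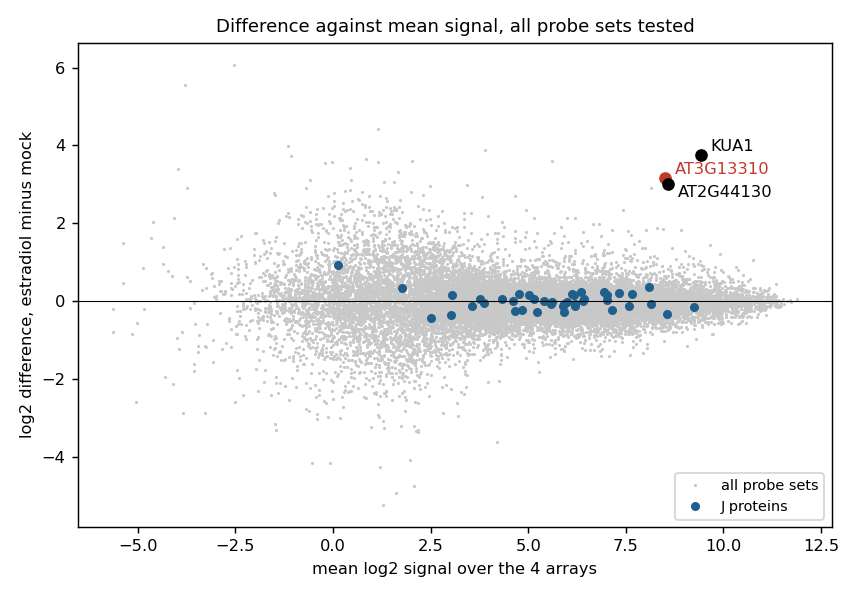
Log2 difference in signal, estradiol minus mock, against the mean log2 signal over the 4 arrays for all 22746 probe sets tested (grey), with 41 other J-protein genes in blue, AT3G13310 in red and KUA1 and AT2G44130 in black. AT3G13310 lies at 3.18 among probe sets of bright signal, whereas most differences of that size belong to dim probe sets on the left.

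The genes whose signals ran most like those of AT3G13310 were sought by the distance between log2 signals over the 4 arrays, after each gene's own mean was taken off, among 7665 named probe sets that were not dim in both groups. The nearest was AT2G44130, or KMD3, one of the kelch-repeat F-box proteins that take part in protein turnover, at a distance of 0.23 log2 units. Like AT3G13310, AT2G44130 was named by Supplementary Data 1, so it too was selected on its signals on these same arrays. Its signals were 843 and 1391 on the estradiol arrays and 116 and 155 on the mock arrays. They followed AT3G13310 array by array, with replicate 2 above replicate 1 in both groups.
KUA1 followed at 0.87, and its mock arrays stood in the opposite order to those of AT3G13310. AT2G36220, for a protein of unknown function, was next at 1.06, with signals of 569 and 1083 on the estradiol arrays and of 137 and 78.6 on the mock arrays. Only 2 of the 7665 lay within a distance of 1. With 4 arrays in 2 groups such a likeness rests mainly on the size of the treatment difference, so it is a description of these arrays.

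Of 76 other J-protein loci listed, 41 had a probe set of their own in the platform table. The 76 include 18 loci whose RefSeq names hold DnaJ, J domain or J protein, and 0 of these 18 were matched. The 41 are thus only a part of the family. Here and in the other gene lists, a gene named by Supplementary Data 1 alone, as AT3G13310 is, would not be counted. Called here are probe sets that pass limma at an adjusted p under 0.05 over all probe sets, or the methods' rule, which is 2-fold with P below 0.05 and no adjustment. By the methods' rule 0 of the 41 were higher and 0 lower, against 0.629% higher and 0.528% lower among all 22746 probe sets. At shares this low, these counts say little with 41 genes. Limma called 0 of the 41 (0% of all probe sets), and 0 of them had an unadjusted limma p under 0.05, against 1481 (6.51%) of all probe sets. Their median log2 difference was -0.007 and that of all probe sets -0.008, with 19 of the 41 above zero and 22 below.
Both estradiol arrays lay above both mock arrays in 5 of the 41 and below them in 6, against 16.1% and 18.0% of all probe sets. The 32 genes that were not dim in both groups had log2 differences between -0.32 and 0.37, and comparing single arrays none of them passed 0.64 upward or -0.78 downward. AT3G13310, whose lowest single-array value was 2.55, lay outside that range, but it entered this description because of its difference.

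AT3G62190 stood at the upper end of the 32, with signals of 264 and 359 on the estradiol arrays and of 231 and 246 on the mock arrays, a log2 difference of 0.37. AT3G57340 had signals of 170 and 177 on the estradiol arrays and of 154 and 143 on the mock arrays, a log2 difference of 0.22. In both genes the groups did not overlap, yet neither was called by limma, with adjusted p-values over all probe sets of 0.856 for AT3G62190 and 0.918 for AT3G57340. At the lower end was ERDJ3B, a J protein of the endoplasmic reticulum, with signals of 410 and 277 in estradiol-treated and of 475 and 375 in mock-treated seedlings. The log2 difference was -0.32, and the groups overlapped.
AT3G04980 had the highest value of the 41, 0.92, but its signals of 2.28 and 0.99 after estradiol and of 0.69 and 0.92 after mock were all dim. Other J proteins had log2 differences nearer zero. ERDJ2A, which belongs to the protein translocation machinery of the endoplasmic reticulum, lay at 0.15, and ATJ1, a mitochondrial J protein, at 0.15. The type C J proteins AT1G56300 and AT5G16650, which have the J domain alone of the classical domains, lay at -0.16 and -0.08.

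**Figure D3:**
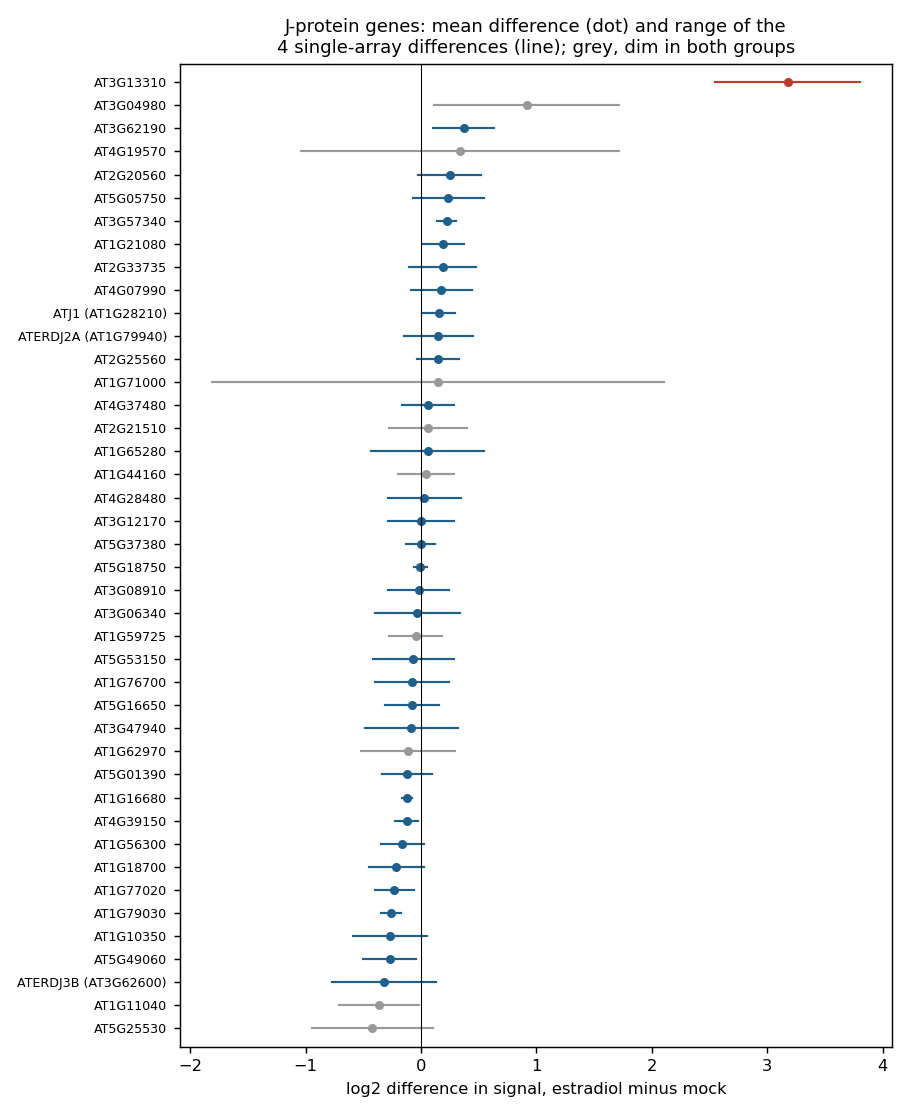
Log2 difference in signal, estradiol minus mock, for AT3G13310 (red) and 41 other J-protein genes, with the mean difference as a dot and the range of the 4 single-array differences as a line (grey, dim in both groups). AT3G13310 spans 2.55 to 3.80, and the 32 genes that are not dim in both groups have means between -0.32 and 0.37.

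Few genes for plastid J proteins and other plastid chaperones were matched to a named probe set. The platform table did not list 8730 of the 22746 probe sets tested. A gene not matched here may thus still have a probe set on the array. Neither J8 nor J20 was matched to a probe set (0 of 2), nor was any of 6 plastid J-domain or J-like proteins of photosynthesis and plastid division. Of 8 genes for plastid Hsp70, its type A J proteins and its nucleotide exchange factors, 1 was measured. This was AT1G36390, a GrpE-type exchange factor that lets Hsp70 release ADP, with signals of 121 and 124 on the estradiol arrays and of 111 and 145 on the mock arrays. Its estradiol signals lay between the mock signals, and its log2 difference of -0.05 was smaller than the gap of 0.38 between the mock replicates.
Of 13 other plastid chaperones and Clp unfoldases, 4 were measured. In 3 of them both estradiol arrays lay below both mock arrays, against 18.0% of all probe sets, a count that says little with 4 genes. Cpn60beta4, the chaperonin subunit that folds a subunit of the chloroplast NDH complex, had signals of 58.9 and 56.8 in estradiol-treated and of 107 and 108 in mock-treated seedlings. Its replicates nearly coincided in both groups and the log2 difference was -0.90, short of 2-fold. Cpn60beta2, a more general subunit of the same folding cage, had signals of 185 and 341 in estradiol-treated and of 524 and 492 in mock-treated seedlings. Here the estradiol replicates lay 0.88 log2 units apart, nearly as far as the log2 difference of -1.02 between groups.
AT3G47650, or BSD2, which assists the assembly of Rubisco, had signals of 1115 and 1151 on the estradiol arrays and of 1369 and 1408 on the mock arrays. All of its estradiol signals were lower than its mock signals, by 0.29 on the log2 scale. Cpn60beta3 overlapped between groups at -0.07. By the methods' rule 0 of the 4 were higher and 0 lower (0.629% and 0.528% of all probe sets), and limma called 0 of them (0%). An unadjusted limma p under 0.05 was found in 2 of them, against 6.51% of all probe sets. The limma p-values adjusted over all probe sets were 0.346 for Cpn60beta4 and 0.617 for Cpn60beta2, and with 4 genes these counts too say little. The median log2 difference of the 4 was -0.60. The client RCA had a log2 difference of -0.11 with groups that overlapped.

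Outside the plastid, 4 of 14 genes for Hsp70, Hsp90 and J proteins of the cytosol and endoplasmic reticulum were measured, among them ERDJ3B and ERDJ2A, which are counted with the J proteins too. The cytosolic Hsp70 gene AT3G09440 had signals of 846 and 738 on the estradiol arrays and of 564 and 676 on the mock arrays. The groups did not overlap, and the log2 difference was 0.35. Hsp70-2 had signals of 187 and 112 in estradiol-treated and of 147 and 129 in mock-treated seedlings, with estradiol signals on both sides of the mock signals. By the methods' rule 0 of the 4 were called in either direction (0.629% of all probe sets higher and 0.528% lower), limma called 0 (0%), and 0 had an unadjusted limma p under 0.05 (6.51%), counts that say little with 4 genes. Their median log2 difference was 0.11.
Of 27 heat-inducible genes, 5 were measured, with a median log2 difference of 0.19. The methods' rule called 0 of them (0.629% of all probe sets higher and 0.528% lower), limma called 0 (0%), and 0 had an unadjusted limma p under 0.05 (6.51%), and with 5 genes these counts again say little. AT5G51440, a small heat shock protein of mitochondria, had signals of 210 and 214 on the estradiol arrays and of 107 and 193 on the mock arrays. The difference of 0.56 was less than the gap of 0.85 between the mock replicates. ATHSP22.0, a small heat shock protein of the endoplasmic reticulum, had signals of 75.3 and 16.4 on the estradiol arrays and of 26.6 and 23.1 on the mock arrays, so that 1 estradiol array alone stood above mock. AT5G48570, a peptidyl-prolyl isomerase of the heat response, had signals of 168 and 98.5 in estradiol-treated and of 69.0 and 185 in mock-treated seedlings. AT5G37670, a small heat shock protein of peroxisomes, had signals of 23.3 and 19.1 in estradiol-treated and of 20.4 and 25.9 in mock-treated seedlings. It was dim in the estradiol group. In AT5G48570, AT5G37670 and ATHSP22.0 the groups overlapped.

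**Figure D4:**
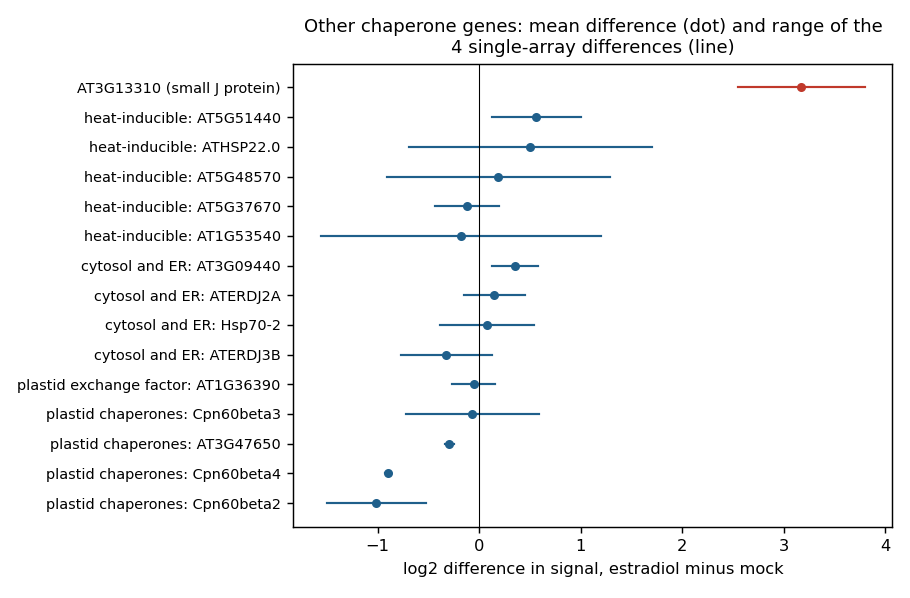
Log2 difference in signal, estradiol minus mock, for AT3G13310 (red, top) and for the measured genes of the heat-inducible, cytosolic and endoplasmic reticulum, and plastid chaperone lists, with the mean difference as a dot and the range of the 4 single-array differences as a line. The plastid genes Cpn60beta4 and Cpn60beta2 lie lowest at -0.90 and -1.02, and the highest of the others is AT5G51440 at 0.56.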

How the data were processed

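The authors deposited 1 linear MAS5 signal intensity per probe set and array, each array scaled to a common trimmed mean (99.3 to 99.4 over the probe sets tested), and no detection calls. The version of MAS5 and any further step between arrays are not given in the sources used here. All signals were above 0 and were taken to log2 without an offset, and 64 of 22810 probe sets, the controls, were left out. Probe sets were named through the platform table (13436 with 1 locus in the RefSeq table, 8730 not listed) and, for a further 78, Supplementary Data 1, from which only probe set and locus entered the analysis. Limma 3.58.1, in R 4.3.3, compared the groups over all probe sets, with an intensity trend, no block and Benjamini-Hochberg adjustment. The methods' rule is a two-sided equal-variance test of log2 signals at P below 0.05, unadjusted, with 2-fold between geometric means. The methods call the replicates biological, and a p-value reflects only how far these 4 arrays spread. The code was tested on simulated data.
The genes and gene lists were chosen with earlier results of these data known, and the J-protein list was added once the reference tables were found to hold no gene descriptions. Named were KUA1, at most 4 genes a list, by smallest limma p, the 3 genes most like AT3G13310 and the genes adjoining each of the 3 loci; ICL, GSTU3, ATJ1, AT1G56300, AT5G16650, the markers and others outside this rule were picked after their values were seen. The number of arrays limits the precision. Alternatives were quantile normalization, median scaling, an offset of 32, raising signals to the 40th percentile of their array (8011 probe sets at the floor on every array left out), leaving out dim probe sets, limma with no trend, linear in place of geometric means, adjusted test p-values, a replicate block and each array left out. Protein and promoter sequences of these genes were not analysed here.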

Additional observations from a re-analysis of the deposited data

How the results depend on the processing

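The log2 difference of AT3G13310 lay between 2.86 and 3.49 under every alternative run, lowest without estradiol replicate 2 and highest without estradiol replicate 1, and it was 2.87 with an offset of 32. Over all probe sets, the methods' rule passed 143 higher and 120 lower. It passed 30 and 6 with an offset of 32, 55 and 22 with the floor, 59 and 24 without dim probe sets, and 0 and 0 after adjustment. With each array left out it passed 90 to 158 higher and 72 to 135 lower, the lowest without estradiol replicate 1 (90 higher) and without mock replicate 2 (72 lower). Same-numbered arrays deviated in opposite ways (r = -0.30 over 14060 probe sets that were not dim in both groups). With 2 arrays a group this correlation cannot show whether the samples were grown or processed in pairs, and the main fit had no block. With the replicate number as a block the rule passed 74 and 70 and limma 0 and 0, and with the numbers crossed, a fit added after this was seen, 80 and 72, with 3 called higher and 0 lower by limma. Limma called 0 in each direction in the other fits.
The median of the plastid chaperones was -0.60, or -0.46 with an offset of 32 and between -0.74 and -0.42 with an array left out, and without estradiol replicate 2 the rule counted 1 of the 4 as lower. The median of the cytosolic and endoplasmic reticulum genes ran from -0.14 to 0.36 with an array left out, and that of the J proteins from -0.065 to 0.021. The median of the heat-inducible genes, 0.19 in the main fit, turned negative without mock replicate 1. Single genes whose values changed sign did so only when an array was left out, and ran from -0.24 to 0.14 for AT1G36390, from -0.57 to 0.44 for Cpn60beta3 (AT5G56500), from -0.014 to 0.31 for ERDJ2A (AT1G79940), from -0.29 to 0.44 for Hsp70-2 (AT5G02490), from -0.59 to 1.60 for ATHSP22.0 (AT4G10250), from -0.30 to 0.052 for AT5G37670 and from -0.52 to 0.90 for AT5G48570. The array left alone in a group was assumed to vary like the other group. The cause of these shifts was not tested.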

Other observations

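The genes next to the 3 loci on their chromosomes were looked up, up to 2 places away on each side. None of the 4 around AT3G13310 was matched to a probe set. Beside AT4G36040, AT4G36050 had signals of 60.9 and 73.0 on the estradiol arrays and of 48.0 and 39.5 on the mock arrays, a log2 difference of 0.61 with no overlap between groups (limma, adjusted p = 0.68 over all probe sets). Beside AT2G17880, AT2G17860 was dim in both groups, at 5.83 and 5.91 on the estradiol arrays and 3.19 and 5.45 on the mock arrays.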
